A study of Drosophila melanogaster with 2 samples.

Results

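The 84 genes described here encode nuclear subunits of the respiratory chain and ATP synthase of Drosophila melanogaster, out of 13973 nuclear protein-coding genes in the Ensembl release 115 annotation (BDGP 6.54). They were defined by gene symbol, although earlier results of these data were known when the set was chosen. Symbols started with ND-, UQCR- or ATPsyn, or with COX and a digit from 4 to 8. The genes blw, RFeSP, Cyt-c1 and Cyt-c-p were added. Complex I had 40 members, complex III 11, complex IV 16 and complex V 16, and Cyt-c-p encodes the mobile carrier cytochrome c. Of the 84, 21 carry the symbol of another subunit followed by L and are called like-paralogs here, and 63 do not. Many fly genes of this kind are known to be expressed mainly in the testis.

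Binding of Mio, an older name of the transcription factor Mondo, was mapped in whole larvae, at the wandering stage of the third instar, by chromatin immunoprecipitation and sequencing (ChIP-seq). The larvae were a pool of males and females of a stable transgenic line in which green fluorescent protein (GFP) is fused to the C-terminal end of Mio. Chromatin was sheared by sonication and precipitated with an antibody against GFP. The 2 biological replicates, numbered 5 and 1, form the only group, so there is no untagged or treated group beside them, and whole larvae mix all tissues.

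The electron transport chain sits in the inner mitochondrial membrane. Complex I takes electrons from NADH, complex III passes them to cytochrome c, complex IV hands them to oxygen, and complex V uses the resulting proton gradient to make ATP. Most subunits are encoded in the nucleus and are imported. Mondo, with its partner Mlx, binds E-box DNA and is known as a sugar-responsive regulator of metabolic genes in the fly.

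The optimal list held 1146 peaks, the pooled relaxed list 28423, the relaxed list of replicate 5 29999 and that of replicate 1 30000. A relaxed list is meant to hold background as well as peaks. Ranks count from the strongest peak of a list and include its mitochondrial peaks, of which there were 29, 34, 36 and 12 in the order above. The signal is the authors' own value for a peak, on a scale that the sources used here do not give, and read depth is unknown. A gene had a promoter summit in a list when the highest point of a peak lay within 500 bp of a transcription start site (TSS) of one of its protein-coding transcripts. The strongest such summit was taken, and a negative position is upstream of the TSS.

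The DNA under 3 of the 5 optimal summits at members is shown, since the optimal summits are where the tagged protein was called at members with both replicates used; the genes are ND-ASHI, ND-24 and COX6B. Sequences are from the RefSeq Release 6 genome, 5′ to 3′ on the strand of the gene, with the 11 bases centred on the summit in capitals. They cover chrX:6679346-6679446 on the minus strand (ND-ASHI), chrX:17632183-17632253 on the plus strand (ND-24) and chrX:19744336-19744399 on the minus strand (COX6B). The ND-24 and COX6B stretches end early so that no transcribed untranslated sequence is printed.
ND-ASHI: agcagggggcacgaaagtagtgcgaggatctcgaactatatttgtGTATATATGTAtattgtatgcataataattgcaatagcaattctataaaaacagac
ND-24: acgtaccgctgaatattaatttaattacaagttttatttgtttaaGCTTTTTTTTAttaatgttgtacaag
COX6B: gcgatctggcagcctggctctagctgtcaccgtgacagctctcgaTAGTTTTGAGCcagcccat
The ND-ASHI and ND-24 stretches were rich in A and T. Within 50 bp of the summit, 27.7% of bases were G or C at ND-24 and 34.7% at ND-ASHI, against 57.4% at COX6B. The median over the 637 optimal summits near a nuclear gene was 36.6%.

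Of the 84 members, 5 had an optimal promoter summit: ND-MWFE, ND-ASHI and ND-24 of complex I, COX6B of complex IV and blw of complex V. That is 5.95% (95% Wilson interval 2.57 to 13.2), beside 6.09% of all nuclear protein-coding genes, so the members were reached about as often as any gene. Complex III had 0 of 11, and the like-paralogs had 0 of 21. All 5 genes were among the other 63 members, of which they make 7.94%.

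ND-MWFE encodes a small accessory subunit of the membrane arm of complex I, the counterpart of human NDUFA1. It had the strongest optimal summit among the members, with a signal of 131.4 at rank 315, 148 bp upstream of its TSS (dm6 chr2R:13158338-13158697). The peak had the same signal in the pooled list, at rank 314, while replicate 5 gave the promoter a signal of 63.7 (rank 556) and replicate 1 one of 68.1 (rank 232). Both replicates thus placed it among their stronger peaks. The summit lay in an intron of TppII, which encodes a tripeptidyl peptidase, and was nearer to a TSS of that gene, at 73 bp.

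ND-ASHI encodes another accessory subunit, the counterpart of human NDUFB8. Its optimal and pooled signal was 120.1, at ranks 378 and 377, with the summit 278 bp upstream (dm6 chrX:6679305-6679435). Its signal was 75.8 (rank 362) in replicate 5, with 45.1 (rank 530) in the other. Here too both replicates ranked the promoter high. Fum1, which encodes fumarase of the citric acid cycle, lies on the opposite strand, and the summit fell in one of its introns, 244 bp upstream of another Fum1 TSS.

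The gene blw encodes the alpha subunit of ATP synthase, and was the one member whose optimal peak was shared with no other gene. Its optimal and pooled signal was 116.2, at ranks 395 and 394, at an intergenic summit 159 bp upstream (dm6 chr2R:22798760-22799119). Replicate 5 gave a signal of 77.3 (rank 347), and replicate 1 a signal of 43.5 (rank 575). G and C made up 20.8% of the bases around this summit, the lowest share of the 5.

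ND-24 encodes an iron-sulfur subunit of the NADH-oxidizing arm of complex I, the counterpart of human NDUFV2. Its optimal and pooled signal was 87.4, at ranks 775 and 774, 88 bp upstream of its nearest TSS and within an intron of a longer transcript (dm6 chrX:17632053-17632412). The signal was 57.8 at rank 715 in replicate 5 but 25.3 at rank 1751 in replicate 1, beyond the first 1146 peaks of that replicate. The peak was shared with corolla, which encodes a synaptonemal complex protein, at 186 bp.

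COX6B encodes a subunit of complex IV on the intermembrane side. It stood closest to the end of the optimal list, with an optimal and pooled signal of 74.3 at ranks 1119 and 1118, 14 bp upstream (dm6 chrX:19744169-19744528). The lowest signal in the optimal list was 73.6, and the strongest member outside the list was COX5A at 60.3 in the pooled list. For COX6B the signal was 53.8 (rank 857) in replicate 5, but 19.8 (rank 2976) in replicate 1. CG18809 starts at the same TSS, and CG33932 and Rpp20, which encodes a ribonuclease P protein, start 82 bp from the summit on the opposite strand.

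Of the 5 optimal peaks, 4 were within 500 bp of a TSS of another gene (80%), against 239 of all 637 optimal peaks near a nuclear gene (37.5%). The second share counts each peak once, whereas a shared peak can be reached through each of its genes, so these shares are not like for like. At these 4 the data cannot tell which gene the peak belongs to. When each peak was given to its nearest gene alone, 3 members had one, beside 4.44% of all genes: blw, ND-24 and COX6B, the last in a tie with CG18809, which has the same TSS. The 5 summits lay between 14 and 278 bp from the TSS, with a median of 148 bp, beside 139 bp over all optimal promoter summits.

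**Figure D1:**
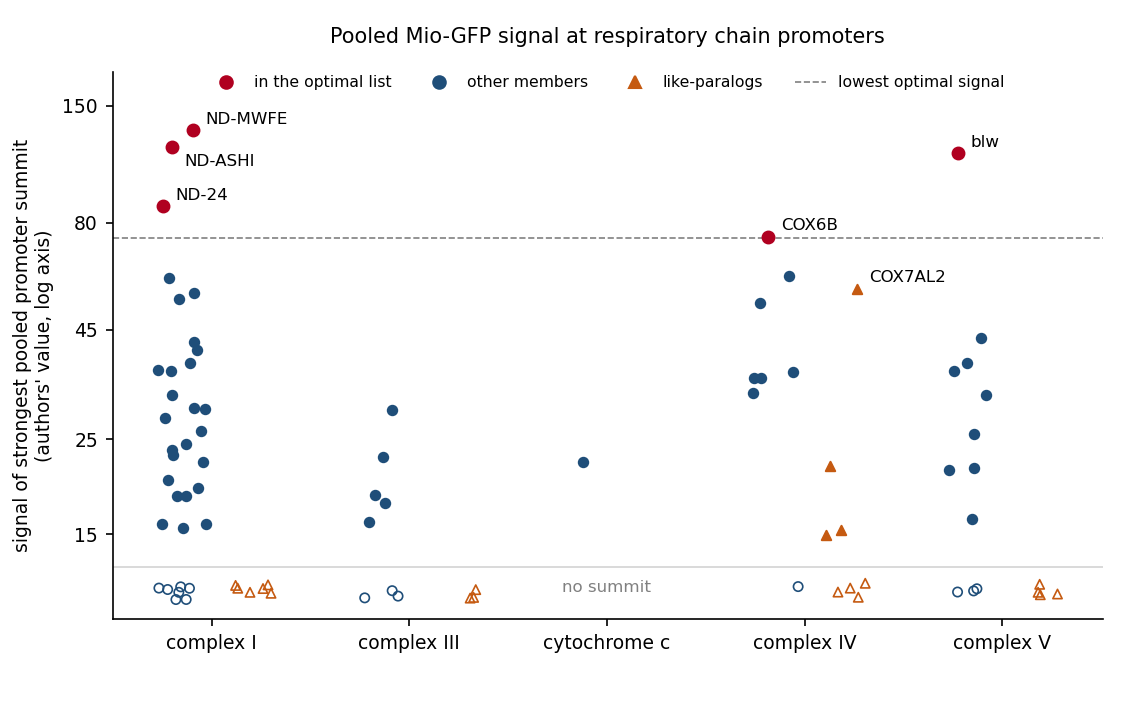
Pooled signal of the strongest promoter summit of each member (log axis), by complex. Red points are the 5 members in the optimal list, triangles are like-paralogs, open symbols below the grey line have no pooled promoter summit, and the dashed line is the lowest signal of the optimal list (73.6). Horizontal scatter within a column has no meaning. The optimal members run from 74.3 to 131.4, and all complex III members are at or below 29.2.

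In the pooled relaxed list, 53 of the 84 members had a promoter summit (63.1%, interval 52.4 to 72.6), beside 47.5% of all genes. The members outside the like-paralogs made up most of this, with 49 of 63 (77.8%, interval 66.1 to 86.3), while the like-paralogs had 4 of 21 (19.0%, interval 7.67 to 40.0). All 4 like-paralogs were in complex IV, where they made 4 of 8 (50%), near the share of all genes. Those of complexes I, III and V had 0 of 6, 0 of 3 and 0 of 4. Over all members the counts by complex were 27 of 40 for complex I, 5 of 11 for complex III, 11 of 16 for complex IV and 9 of 16 for complex V, and Cyt-c-p had one. The summits were not strong. Their median signal was 29.4, against 32.3 over all genes with a pooled promoter summit, and their median percentile in the list was 73.7, against 78.2.

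The excess of the members outside the like-paralogs grew down the list. Among the strongest 5000 pooled peaks, 18 of 63 had a promoter summit (28.6%), beside 20.5% of all genes. For the strongest 10000 it was 30 of 63 (47.6%), beside 31.4%. The like-paralogs had 1 member among the first 10000.

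**Figure D2:**
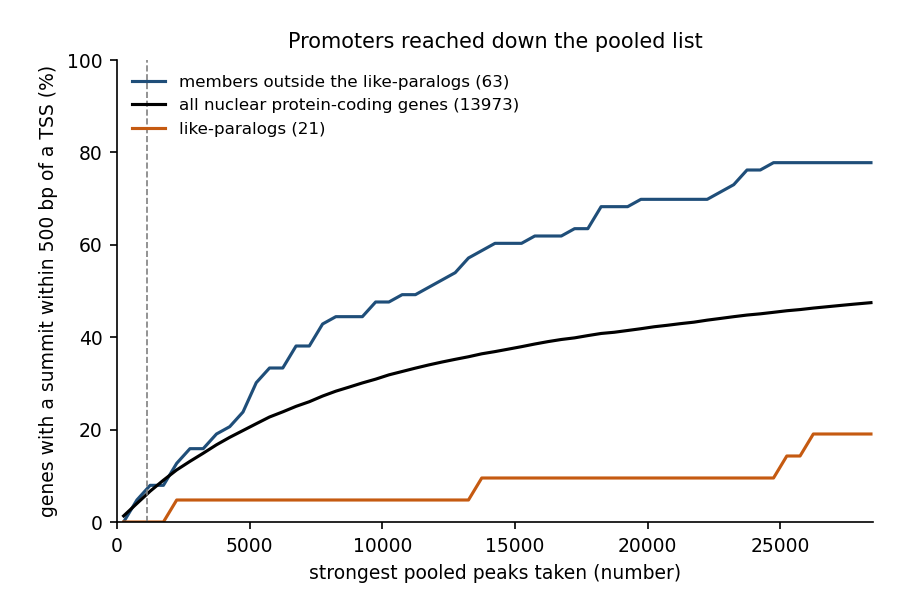
Share of genes with a promoter summit (vertical axis, %) against the number of strongest pooled peaks taken (horizontal axis), for the 63 members outside the like-paralogs, the 21 like-paralogs and all 13973 genes; the dashed line marks 1146 peaks, the size of the optimal list. The curves of the 63 and of all genes run close together at the dashed line and end at 77.8% and 47.5%, and the like-paralogs end at 19.0%.

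The higher share was seen in one replicate and not in the other. In the relaxed list of replicate 5, 55 members had a promoter summit (65.5%) and 50 of the 63 outside the like-paralogs (79.4%, interval 67.8 to 87.5), beside 49.7% of all genes. In that of replicate 1, 29 members had one (34.5%) and 25 of the 63 (39.7%, interval 28.5 to 52.0), beside 42% of all genes. Both lists hold nearly the same number of peaks. By complex, replicate 1 gave a promoter summit to 10 of 16 complex IV members (62.5%, interval 38.6 to 81.5), above the 42%. It gave one to 12 of 40 in complex I (30%), 2 of 11 in complex III (18.2%) and 4 of 16 in complex V (25%).

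Among the stronger peaks, the members together also had the higher share in replicate 5 only. Among the strongest 10000 of replicate 5, 35 of the 63 had a promoter summit (55.6%), beside 33% of all genes, and among those of replicate 1, 13 of the 63 (20.6%), beside 24.7%. Among the strongest 1146, replicate 5 reached 6 members, the 5 of the optimal list and COX5A, beside 6.17% of all genes. Replicate 1 reached 3, ND-MWFE, ND-ASHI and blw, beside 5.58%. ND-24, COX6B and COX5A were thus among the strongest 1146 in replicate 5 only. The members' higher share in the pooled list went with that of replicate 5, and the part played by differences between the 2 libraries was not tested.

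**Figure D3:**
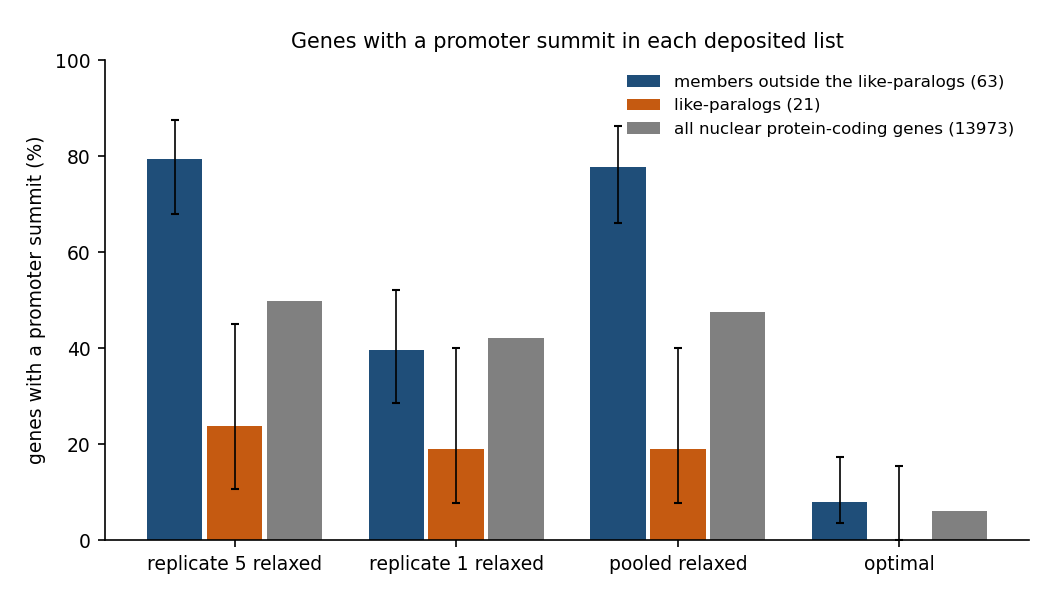
Share of genes with a promoter summit (%) in the 4 deposited lists, for the 63 members outside the like-paralogs, the 21 like-paralogs and all 13973 genes. Error bars are 95% Wilson intervals, which cover counting error over genes only. The 63 stand at 79.4% in replicate 5 and 39.7% in replicate 1, where all genes stand at 49.7% and 42%.

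Gene by gene, 24 members had a promoter summit in both replicates (28.6%, against 30.0% of all genes), 31 in replicate 5 alone (36.9%, against 19.7%) and 5 in replicate 1 alone (5.95%, against 12.1%). In 13 members the strongest summits of both replicates lay within 100 bp of each other (15.5%, against 14.9% of all genes). Over the 24 members with both, the signals had a Spearman correlation of 0.64 and a Pearson correlation of 0.65 on the log10 scale. Over the 4188 such genes in all they were 0.58 and 0.67. These are correlations across genes called against one shared control, and genes are not replicates.

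**Figure D4:**
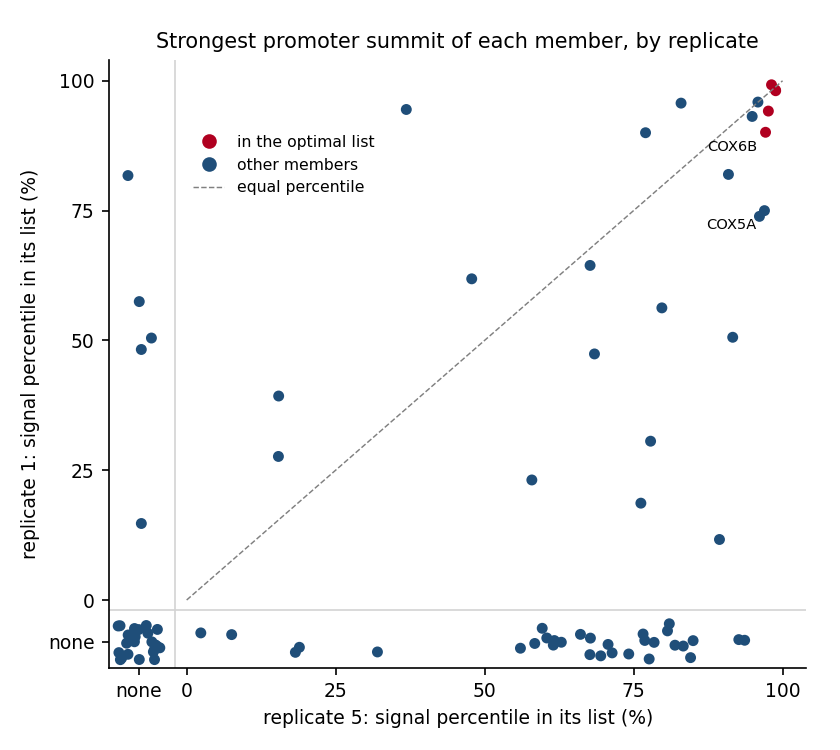
Percentile of the strongest promoter summit of each member within the relaxed list of replicate 5 (horizontal axis) and of replicate 1 (vertical axis); points beyond the grey lines had no promoter summit in that list and are spread for visibility. Of the 84 members, 31 have a summit in replicate 5 alone and 5 in replicate 1 alone.

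Outside the optimal list, the strongest pooled summits of complex I were those of ND-13B, ND-51 and ND-42. ND-13B, the counterpart of human NDUFA5, had a pooled signal of 59.3 at rank 1818, 1 bp upstream of its TSS, with signals of 43.3 (rank 1530) in replicate 5 and 23.3 (rank 2061) in replicate 1. ND-51 encodes the flavoprotein that receives electrons from NADH, and had a pooled signal of 54.9 at rank 2140, with 25.8 (rank 5110) in replicate 5 and 29.1 (rank 1292) in replicate 1. Both were present in each replicate but below the optimal list.

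For ND-42, the counterpart of human NDUFA10, the pooled signal was 53.0 at rank 2308. Its signal was 48.1 (rank 1164) in replicate 5 and 13.7 (rank 7835) in replicate 1, and the replicate 1 summit lay on the other side of the TSS, 496 bp away. The pooled summit was in the 5' UTR of Cchl, which encodes the lyase that attaches heme to cytochrome c. Of the 27 complex I members with a pooled summit, 24 had it upstream of the TSS.

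Complex III had the lowest median pooled signal of the complexes, 18.6 over its 5 members with a summit. In replicate 1, where only 2 of its members had one, the median was 13.5, beside 12.8 for complex I and 10.96 for complex IV. UQCR-C2, a core protein of the complex, had a pooled signal of 29.2 (rank 7562) and a replicate 5 signal of 10.8 (rank 24526), with no promoter summit in replicate 1. UQCR-11 had a pooled signal of 22.7 (rank 12344) and a replicate 1 signal of 15.6 (rank 5476), with none in replicate 5. UQCR-14 had a pooled signal of 18.6 (rank 17896) and a replicate 5 signal of 18.4 (rank 10174), with none in replicate 1. Each of these small or core subunits was therefore seen in a single replicate. Cytochrome c itself, Cyt-c-p, had a pooled summit 416 bp downstream of its TSS with a signal of 22.1 (rank 12905), and signals of 18.8 (rank 9690) and 12.3 (rank 10669) in replicates 5 and 1. The replicate 5 summit lay 26 bp downstream of the TSS, 442 bp from that of replicate 1 in the intron, so these were different sites.

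In complex IV, COX5A, a nuclear subunit on the matrix side, led outside the optimal list with a pooled signal of 60.3 (rank 1754). Its signal was 52.6 (rank 911) in replicate 5 and 13.9 (rank 7503) in replicate 1. The like-paralog COX7AL2 came next, with 56.1 (rank 2040) in the pooled list, 46.7 (rank 1241) in replicate 5 and 29.9 (rank 1231) in replicate 1, at summits 133 bp apart. It was the only like-paralog among the first 10000 pooled peaks. COX7B had a pooled signal of 51.9 (rank 2407), with 22.4 (rank 6898) in replicate 5 and 19.8 (rank 3002) in replicate 1. Over the 11 complex IV members with a pooled summit the median signal was 34.8.

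In complex V, ATPsynC, which forms the rotating ring of the membrane part, had a pooled signal of 43.1 (rank 3523) and a replicate 5 signal of 39.4 (rank 1909), with no promoter summit in replicate 1. ATPsynbeta, the catalytic subunit, had a pooled signal of 37.6 (rank 4604), with 34.1 (rank 2725) in replicate 5 and 15.6 (rank 5411) in replicate 1. These were different sites: the replicate 1 summit lay 816 bp from that of replicate 5, in an intron of CG11076. The small membrane subunit gene ATPsynE had 36.1 (rank 4975) in the pooled list, 12.9 (rank 18942) in replicate 5 and 26.0 (rank 1659) in replicate 1. ATPsynE was thus the stronger in replicate 1, whereas the other two were the stronger in replicate 5. Complex V summits lay on both sides of the TSS, with 4 of 9 upstream, at a median of 49 bp from it in the pooled list. In replicate 1, 3 of the 4 complex V summits were upstream, at a median of 114.5 bp.

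Over all 53 members the pooled summit lay at a median of 106 bp from the TSS (132 bp over all genes), and 41 were upstream (77.4%, against 72.4% of all genes). The pooled peak was within reach of another gene's TSS at 30 of the 53 (56.6%), against 40.5% of all genes with a pooled promoter summit.

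**Figure D5:**
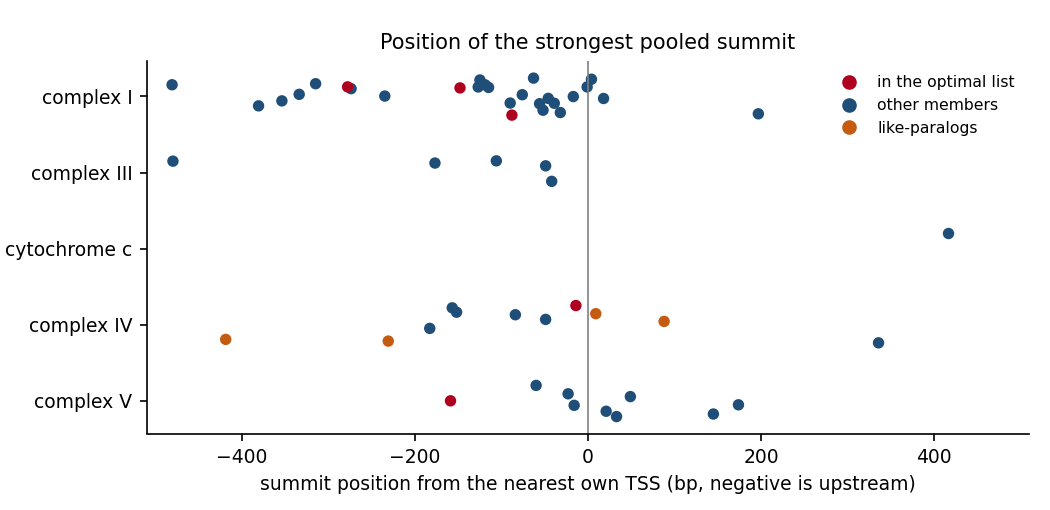
Position of the strongest pooled summit of each of the 53 members relative to its nearest own TSS (bp, negative is upstream), by complex. Red points are the 5 optimal members and orange points like-paralogs; vertical scatter has no meaning. In complex I, 24 of 27 summits are upstream, and in complex V 4 of 9.

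The like-paralogs were set beside the genes they are named after, which are 18 genes, some of them outside the 84 (levy for COX6AL and COX6AL2, cype for COX6CL and sun for ATPsynepsilonL). Of the 21 pairs, the counterpart alone had a pooled promoter summit in 16, both had one in 3, the like-paralog alone in 1 and neither in 1. The one like-paralog with a summit where its counterpart had none was COX4L, with a pooled signal of 21.7 against none for COX4. Where both had one, COX7AL2 at 56.1 was above COX7A at 34.8, while COX7AL at 14.9 and COX7CL at 15.3 were below COX7A and COX7C, the last at 34.8. The pooled peak of COX7CL was also in reach of a TSS of COX7C, 448 bp away, but it was not the peak compared here for COX7C.

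No promoter summit in any of the 4 lists was found for 22 members (26.2%, against 36.4% of all genes). Of these, 15 were like-paralogs and 7 were not. The 7 were ND-19, ND-B16.6, ND-B17.2 and ND-B8 of complex I, UQCR-Q of complex III, COX4 of complex IV and ATPsynB, part of the stator of ATP synthase, of complex V. The like-paralogs without a summit were ND-20L, ND-24L, ND-49L, ND-51L1, ND-51L2, ND-B14.5AL, UQCR-14L, UQCR-6.4L, COX5BL, COX6AL2, COX6CL, ATPsynCF6L, ATPsynGL, ATPsynbetaL and ATPsynepsilonL.

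A few members had an optimal summit farther away. When a summit could lie anywhere in the gene or up to 2000 bp upstream of it, 9 of the 84 members had one, beside 9.47% of all genes, the added ones being COX7AL2, ND-39, Cyt-c-p and COX7C. At COX7AL2 the intergenic summit lay 1451 bp upstream with a signal of 147.7 (rank 252), above every promoter summit of the members. At Cyt-c-p it lay in the gene's own intron, 966 bp downstream of the TSS, with a signal of 90.4 (rank 711). At ND-39 it lay 1578 bp downstream with a signal of 91.2 (rank 697), but 170 bp from a TSS of ZnT77C, and at COX7C 1941 bp upstream in an intron of oys with a signal of 86.7 (rank 790).

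Promoters were then searched on both strands for short sequences in 1001 bp around the canonical TSS, a window of one length for every gene. GGTCACAC, a core promoter sequence of broadly expressed fly genes, was found at 20 of the 63 members outside the like-paralogs (31.7%) and 21 of all 84 (25%), against 10.6% of all genes. Of the 22 matches, 15 were within 100 bp of the TSS, for which no share over all genes is given. Of the 16 at members with a pooled summit, 1 was within 50 bp of that summit. That is 1.89% of the members' 53 strongest pooled summits, about the same as the 1.98% of 7845 pooled summits near a nuclear gene. Of the 20 members with the sequence, 14 had a pooled promoter summit (70%), as had 35 of the 43 without it (81.4%). Over all genes the order was the other way, with 989 of 1477 genes that hold the sequence (67.0%) and 5645 of 12496 that do not (45.2%) having a pooled promoter summit. The difference among the members rests on few genes and was not tested.

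Matches in members of complexes I, III and IV are shown to give the context of this sequence, each with 10 bases on either side and the match in capitals, 5′ to 3′ on the strand that reads GGTCACAC. They lie at chr3L:1329982-1329989 on the plus strand (ND-ACP, in its 5' UTR, 36 bp downstream), chr2L:15751086-15751093 on the minus strand (ND-B17, intergenic, 11 bp upstream), chr2L:1614147-1614154 on the minus strand (RFeSP, in its 5' UTR, 10 bp downstream), chr2L:6557812-6557819 on the plus strand (COX5B, in its 5' UTR, 15 bp downstream) and chr3L:17425486-17425493 on the plus strand (COX7B, in its 5' UTR, 12 bp downstream). RFeSP encodes the Rieske iron-sulfur protein of complex III and ND-ACP the acyl carrier protein of complex I. ND-B17 and RFeSP had no pooled promoter summit. The 5 shown lie near the TSS, whereas matches not shown in ATPsynC, ATPsynD and ATPsynG of complex V lay 233, 102 and 388 bp upstream.
ND-ACP: ttgcgcatacGGTCACACtgctaccttg
ND-B17: ttaagagtgcGGTCACACtggcggcaac
RFeSP: acttgagtgcGGTCACACtggttctcag
COX5B: actttaccgcGGTCACACtgatccatag
COX7B: acaacacaacGGTCACACtgttcaacac
In these 5, and in 13 of all 22 matches, the sequence was on the strand of the gene.

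CACGTG, the E-box that proteins of the Mondo and Mlx kind can bind, was found at 3 of the 63 members (4.76%) and 6 of all 84 (7.14%), against 12.9% of all genes, and at 0 of the 5 optimal summits within 50 bp, against 1.57% of 637. It lay within 50 bp of 1 of the members' 53 strongest pooled summits (1.89%), against 1.35% of 7845 pooled summits near a nuclear gene. The 1 was that of ND-PDSW, an accessory subunit gene of complex I, at 7 bp. That match is shown with 10 bases on either side, on the plus strand at chr2L:3465927-3465932, within the 5' UTR of the neighbouring gene msl-2.
ND-PDSW: cactatgtttCACGTGcaaaaaaaaa
The pooled signal of ND-PDSW was 20.1 (rank 15482), with 24.4 (rank 5793) in replicate 5 and no promoter summit in replicate 1, so the match sat under a weak peak. An exact paired E-box, with its copies of CACGTG 5 bp apart, was found at 0 promoters of the 13973.

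The nuclear respiratory gene (NRG) element is a sequence of 11 bases that has been linked to fly respiratory genes. The form searched was taken from general knowledge and was not checked against its source publication, so the counts hold for that form only. It was found within 500 bp of any TSS in 4 of the 84 members (4.76%), against 0.687% of all genes. The 4 were Cyt-c1, COX4, ATPsynC and ATPsynbeta. Around the canonical TSS, the window used for the other sequences, it was found in 3 members (3.57%), against 0.558% of all genes. The element was already linked to genes of this kind, so a higher share among the members is not independent evidence. Those in Cyt-c1, which encodes cytochrome c1 of complex III, and in ATPsynbeta lay outside untranslated regions and are shown on the plus strand with the element in capitals, at chr3L:5359743-5359753 (intergenic, 463 bp upstream) and chr4:1032097-1032107 (intron, 238 bp downstream).
Cyt-c1: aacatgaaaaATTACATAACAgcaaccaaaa
ATPsynbeta: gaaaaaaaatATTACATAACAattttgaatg
The element in Cyt-c1 was 17 bp from the gene's pooled summit, whose signal was 16.0 (rank 23084), among the weakest of the members. Those in ATPsynC and ATPsynbeta were 239 and 217 bp from theirs, and COX4 had no summit. All 4 were among the 63 members outside the like-paralogs. Within these 63, 3 of the 4 with the element had a pooled promoter summit (75%), as had 46 of the 59 without it (78.0%). With 1 mismatch allowed it was found at 42 members (50%) and at 18.1% of all genes.

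TATCGATA, another core promoter sequence of broadly expressed genes, was found at 11 of the 63 members (17.5%) and 11 of all 84 (13.1%), against 12.0% of all genes. GCGCATGC was found at 0 of 84, against 2.55%. None of the searched sequences was within 50 bp of the 5 optimal summits, where TATCGATA was found at 4.40% of 637. These counts describe letters in a window and do not show binding.

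Of 43 other genes of the respiratory chain, its assembly and mitochondrial biogenesis, 36 matched the annotation, and 24 of them had a pooled promoter summit (66.7%, beside 47.5% of all genes). Most of the 24 had a promoter summit in replicate 5, whereas many had none in replicate 1. A peak in reach of 2 listed genes was counted at both. An optimal summit was found at 2 of the 36, beside 6.09% of all genes. CIA30, which encodes an assembly factor of complex I, had a signal of 257.1 at rank 79, 132 bp upstream (dm6 chr3R:29736718-29736920), with 142.0 (rank 90) in replicate 5 and 114.6 (rank 68) in replicate 1, a peak shared with CG7601. This was above the signal of any member. ERR, which encodes the fly estrogen-related receptor, a regulator of larval carbohydrate metabolism, had a signal of 88.1 at rank 752, 243 bp upstream, with 45.8 (rank 1300) and 37.4 (rank 780) in replicates 5 and 1, a peak shared with Atg18a.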

How the data were processed

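Peak lists in dm6 coordinates were used. Per the deposited text files, the relaxed lists were called on the alignments of replicate 5, of replicate 1 and of both pooled, each against 1 shared control, and these lists gave the optimal one. The software for alignment and peak calling, and the threshold of the irreproducible discovery rate, are not given in the sources. The signal of each peak is the deposited value of the authors, and served to rank peaks within a list. The control and the dm3 lists were not analysed here, and read depth is unknown.

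Summits were set against TSSs of protein-coding transcripts of the nuclear chromosomes (Ensembl release 115, BDGP 6.54) with python 3.11.15, pandas 2.3.3 and numpy 2.4.6, and sequences were read from RefSeq Release 6. The pairing of summits with TSSs was tested on simulated summits. A peak in reach of more than 1 gene was counted at each of them. Percentiles give the share of a list's peaks with a lower signal. Wilson intervals (95%) cover counting error over genes only. With 1 group, no test over samples was possible, so counts stand beside the same count over all 13973 genes.

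The members and lists were chosen with earlier results of these data known. Named were all members with an optimal promoter summit, the 3 strongest others of each complex in the pooled list, members among the strongest 1146 of a single replicate, members with no summit, genes sharing their peaks, and listed related genes with an optimal summit; COX4L, COX7A, COX7AL, COX7C, COX7CL, ND-PDSW, Cyt-c1, ND-39 and the genes whose motif matches are shown were chosen after their values were seen. Of the 43 related symbols, 7 matched no single gene and were left out. Alternatives were each replicate alone, the stronger 573 optimal peaks, the whole peak, the nearest gene only, and other distances and windows.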

Additional observations from a re-analysis of the deposited data

How the results depend on the processing

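Of 67 alternative values, 54 kept the count within 1.5 times, or the median within 1 SD, of the value reported, and 13 moved. The SD was that of the medians of the 2 replicates. Some of the 54 could not have moved, so the tally is no measure of robustness. These include counts of 0 under stricter settings, and optimal counts without the like-paralogs, none of which had an optimal summit. The 5 members with an optimal promoter summit became 3 among the 573 stronger optimal peaks (3.06% of all genes), 3 with the nearest gene only (4.44% of all genes) and, in an alternative chosen after seeing the data, 9 with a reach of 2000 bp before the gene to its end (9.47% of all genes). The share of all genes moved with these counts. For complex I the nearest gene only left 1, and for complex IV the 573 stronger peaks left 0. With as many strongest peaks of 1 replicate alone, the count of members ran from 3 (without replicate 5) to 6 (without replicate 1), that of complex I from 2 to 3 and that of complex IV from 0 to 2, while complexes III and V stayed at 0 and 1. The 53 members with a pooled summit became 29 without replicate 5 and 55 without replicate 1, while the share of all genes went from 47.5% to 42% and 49.7%; the cause was not tested. The median percentile was 56.1 when taken among promoter peaks alone, a smaller and stronger set. Summits of both replicates lay within 50 bp at 6 members, for which no share over all genes is given. The NRG element was found at 2 members within 250 bp (0.308% of all genes) and at 42 with 1 mismatch (18.1% of all genes). No paired analysis was possible because there is 1 group. With 2 replicates, a shared control and unknown depth, a missing summit is not evidence that the tagged protein was absent, and in whole larvae a weak peak in all tissues and a strong peak in few cannot be told apart.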
